A study of Mus musculus with 9 samples.

Results

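The 8 secreted factors described here were Vegfa, Prok2, Osm, Tgfb1, Hbegf, Areg, Hgf and Thbs1, taken by gene symbol from the count and FPKM values of sorted lung neutrophils. All 8 had values among the 18325 genes with values, and all 8 passed the filter on low counts that left 14108 genes. RNA of 9 libraries was sequenced, with 3 libraries in each of 3 groups, all from female BALB/c mice. Ly6Ghi and Ly6Glow were CD45+ neutrophils sorted for high or low Ly6g protein from lungs at the macrometastatic stage, after 4T1-LM3 cells had been injected into the mammary fat pad. 4T1-LM3 was selected for growth in the lung from 4T1, a mammary carcinoma line of BALB/c mice, so that the tumor-bearing groups represent a single selected line. NL were Ly6Ghigh neutrophils from the lungs of mice for which no tumor injection is given. The labels call the 3 libraries of a group replicate biosamples and do not say whether each came from 1 mouse or from pooled mice, so the p-values measure the spread between these samples only. In bulk RNA, fewer cells of a type and less RNA per cell cannot be told apart.

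Neutrophils can deliver growth factors into a tumor bed from their granules and by new transcription. Vegfa drives endothelial growth through the receptors Flt1 and Kdr, and Prok2 (Bv8) is a myeloid-derived angiogenic peptide. Osm is a cytokine of the IL-6 family, Tgfb1 is made as a latent complex that has to be activated, Hbegf and Areg are membrane-anchored ligands of Egfr that are shed by proteases, and Hgf acts on Met. Thbs1 is a secreted matrix glycoprotein that inhibits angiogenesis through Cd36 and Cd47 and can activate latent Tgf-beta.

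Areg and Prok2 were the members called higher in Ly6Glow than in Ly6Ghi, and their proximal promoters are shown for that reason. The sequences are RefSeq's, on build GRCm38.p6, and cover the 250 bases before the annotated start, written 5′ to 3′ on the strand of the gene. Areg lies at chr5:91139599-91148432 on the plus strand and its window is chr5:91139349-91139598. Prok2 lies at chr6:99711299-99726392 on the minus strand and its window is chr6:99726393-99726642. Capitals mark a cyclic AMP response element (CRE, TGACGTCA) in Areg, and in Prok2 an E-box (CACGTG) followed by an AP-1 motif (TGANTCA, matched here as TGAGTCA).
Areg: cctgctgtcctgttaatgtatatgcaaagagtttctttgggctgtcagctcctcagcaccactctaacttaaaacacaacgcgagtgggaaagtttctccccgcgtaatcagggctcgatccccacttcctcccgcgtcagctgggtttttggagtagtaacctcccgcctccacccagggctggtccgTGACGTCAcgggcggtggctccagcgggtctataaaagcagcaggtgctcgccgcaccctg
Prok2: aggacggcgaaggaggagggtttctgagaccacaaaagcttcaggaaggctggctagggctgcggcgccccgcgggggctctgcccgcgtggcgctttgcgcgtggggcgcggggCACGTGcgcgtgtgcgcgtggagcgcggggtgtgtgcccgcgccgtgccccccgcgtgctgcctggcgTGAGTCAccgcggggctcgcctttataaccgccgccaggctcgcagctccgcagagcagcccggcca
The CRE of Areg lay 61 to 54 bases before the start, the E-box of Prok2 135 to 130 bases before it and the AP-1 motif 67 to 61 bases before it. The E-box also holds both matches of Prok2 to the core of a hypoxia response element (ACGTG), 1 on each strand. Both strands were searched for each motif. Among 32851 promoter windows of the same length, a CRE was found in 1.55%, the E-box in 6.02%, the AP-1 motif in 6.75% and the hypoxia core in 16.6%. The RefSeq table held 7 windows for 5 of the 8 members. The 2 windows of Hgf, the window of Tgfb1 and the window before the first start of Vegfa (chr17:46032378-46032627) held none of these motifs. A second window of Vegfa (chr17:46025164-46025413), which lies inside the span of the gene (chr17:46016993-46032377), held 1 hypoxia core. A match is a match of letters only.

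The libraries held 15267177 to 17841807 estimated counts each. CPM are estimated counts scaled to the TMM-normalized library size, and FPKM are the deposited values scaled for transcript length. Fold changes come from edgeR's quasi-likelihood test on all 14108 genes, with Benjamini-Hochberg adjusted p-values. Genes were called where the adjusted p was 0.05 or less and the log2 fold change exceeded 0.58 in either direction. The comparisons share libraries with each other. No exact permutation test of 3 libraries against 3 can give a two-sided p below 0.1.

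The neutrophil label was checked against 10 neutrophil genes, which summed to 71300 to 73100 CPM in Ly6Ghi, 76800 to 78500 in Ly6Glow and 18400 to 18700 in NL. All 10 were called higher in each macrometastatic group than in NL. Ly6g itself was 379.8, 361.2 and 380.1 CPM in the Ly6Ghi libraries, 384.6, 403.2 and 394.0 in Ly6Glow and 120.2, 120.2 and 117.8 in NL. The Ly6g transcript was thus not lower in the libraries sorted for low Ly6g protein (log2 fold change 0.08, SE 0.033, adjusted p = 0.0577), and it was higher in Ly6Ghi than in NL by 1.65 (SE 0.035, adjusted p = 1e-20), although both were sorted as Ly6Ghigh. On FPKM, Ly6g was 395.58 to 416.57 in Ly6Ghi and 357.64 to 373.45 in Ly6Glow, so the order of the groups labelled high and low depended on the scale.

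Genes of other lung cells were more abundant in NL. Summed over 9 epithelial genes they came to 1230 to 1390 CPM in NL, against 122 to 128 in Ly6Ghi and 127 to 134 in Ly6Glow. The 7 endothelial genes summed to 975 to 1050 CPM in NL, 144 to 148 in Ly6Ghi and 177 to 184 in Ly6Glow, and the 7 fibroblast genes to 541 to 573, 52.1 to 59.7 and 54 to 60. All 9 epithelial, all 7 endothelial and all 7 fibroblast genes were called lower in Ly6Ghi than in NL, and 8, 7 and 7 of them in Ly6Glow. Alveolar macrophage genes (13 with values) summed to 1610 to 1650 CPM in Ly6Ghi, 375 to 400 in Ly6Glow and 2030 to 2050 in NL. Chil3 carried much of these sums (1270, 277 and 964 CPM), and the other 12 genes came to 341 to 356 CPM in Ly6Ghi, 106 to 111 in Ly6Glow and 1050 to 1090 in NL. Of the 13 genes, 10 were called lower in Ly6Ghi than in NL, 12 in Ly6Glow than in NL and 10 in Ly6Glow than in Ly6Ghi, and none was called higher. The other lists ran as follows. Monocyte and macrophage genes summed to 806 to 817 CPM in Ly6Ghi, 726 to 754 in Ly6Glow and 1260 to 1290 in NL. Mrc1 alone stood at 119, 28.6 and 428 CPM in the same order. Of these 11 genes, 6 were called lower and 1 higher in each macrometastatic group than in NL. In Ly6Glow over Ly6Ghi, 3 were called lower and 0 higher. Dendritic cell genes came to 13.2 to 15.3, 11.7 to 13.6 and 47.7 to 54.8 CPM, and T, NK and innate lymphoid genes to 61.3 to 62.5, 48.6 to 50.7 and 89.6 to 92.7. B cell genes came to 46.3 to 47.3, 28.1 to 30.0 and 27.4 to 29.9 CPM, eosinophil genes to 48.8 to 53.5, 6.78 to 7.9 and 2.78 to 3.92, and platelet genes to 13.1 to 14.2, 12.7 to 13.8 and 18.6 to 20.1. Basophil and mast cell genes reached 2100 to 2150 CPM in Ly6Ghi, 3950 to 4090 in Ly6Glow and 2070 to 2230 in NL, nearly all of it Hdc (1990, 3760 and 2080 CPM) and Kit (104, 225 and 58.3 CPM). The other 7 genes of that list, Mcpt8 and Prss34 among them, came to 40.2 to 42.2 CPM in Ly6Ghi, 22.6 to 26.9 in Ly6Glow and 25.7 to 28.1 in NL. In Ly6Glow over Ly6Ghi, 2 of the 7 tested basophil and mast cell genes were called higher and 4 lower (median log2 fold change -0.78). The 16 immediate early genes that tissue dissociation can induce summed to 10400 to 10500, 12700 to 13300 and 9570 to 10600 CPM. Of them, 5 were called higher and 4 lower in Ly6Glow over Ly6Ghi. In Ly6Ghi over NL 5 were called higher and 7 lower, and in Ly6Glow over NL 6 and 5. The similar sums of Ly6Ghi and NL hid opposite differences. Egr1, for example, was at 298 CPM in Ly6Ghi and 1130 in NL, and Hspa1a at 1150 and 352. Of all these markers only Tpsb2, a mast cell gene, was at 0 in every library of a group (Ly6Ghi). The part of these cells in the members' differences was not tested.

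Between the macrometastatic neutrophils, Areg and Prok2 were higher in Ly6Glow and no member was called lower. Thus 2 of the 8 members were called higher, where 9.29% of all tested genes were, and 0 of 8 lower, where 15.9% were. Their median log2 fold change was 0.10, beside -0.04 over all tested genes. The CPM of the groups did not overlap for 5 members, against 62.1% of all genes. From NL to Ly6Ghi, 1 member was called higher (Prok2) and 5 lower (Thbs1, Areg, Vegfa, Hbegf and Hgf), against 26.3% and 36.6% of all genes. All 8 members were without overlap in this comparison, as were 85.2% of all genes, and their median log2 fold change was -0.73 beside -0.09 over all genes. From NL to Ly6Glow, 1 member was called higher (Prok2) and 4 lower (Thbs1, Hbegf, Hgf and Vegfa), against 28.7% and 40.8% of all genes. Here 7 members were without overlap, against 86.8% of all genes, and the median was -0.52 beside -0.16.

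**Figure D1:**
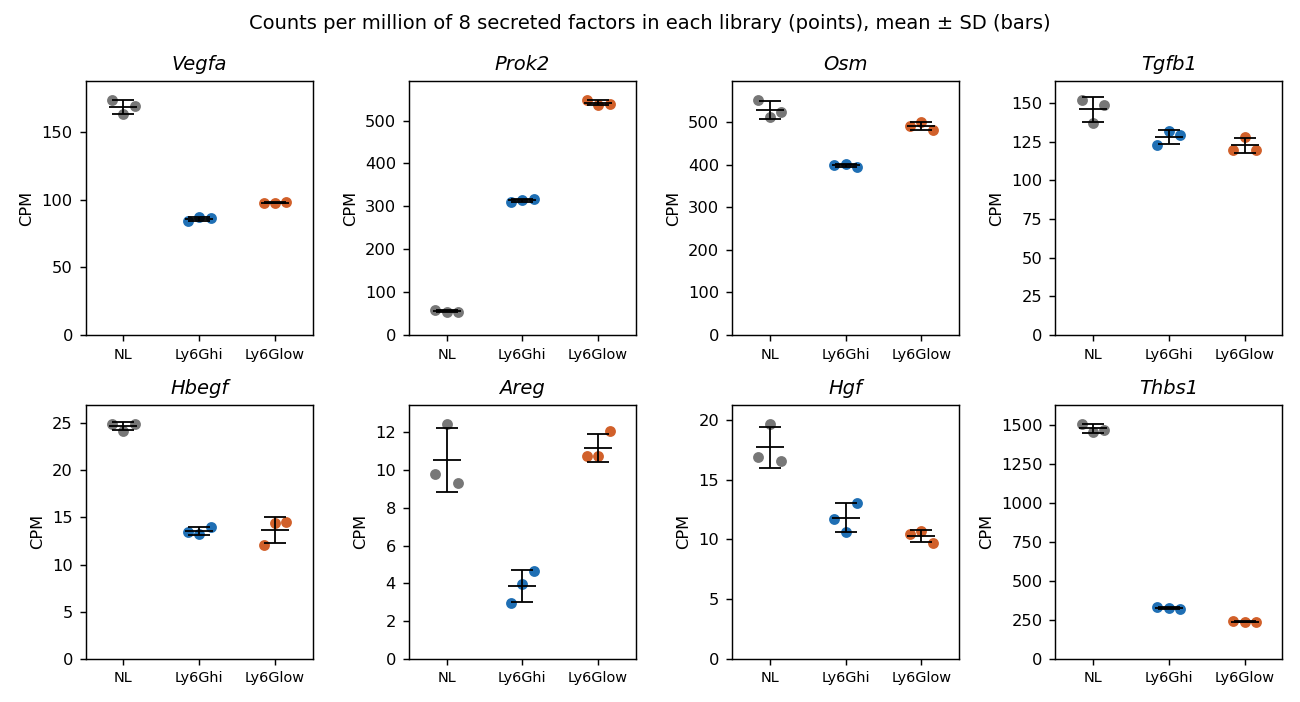
CPM (linear axis from 0) of each of the 8 factors in the 9 libraries; points are libraries, the horizontal bar is the mean and the whiskers the SD of 3 libraries. Prok2 rises from NL (54.43 to 58.56 CPM) to Ly6Glow (537.2 to 548.3), Thbs1 is highest in NL (1458 to 1509) and Areg is lowest in Ly6Ghi (2.953 to 4.642).

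Prok2 showed the largest fold difference of the 8 members, and it was highest in Ly6Ghi and Ly6Glow. It stood at 58.56, 54.43 and 54.75 CPM in NL, at 309.9, 314.1 and 317.7 in Ly6Ghi and at 548.3, 537.2 and 539.3 in Ly6Glow. No library of one group reached the range of another. The log2 fold change was 2.49 (SE 0.037, adjusted p = 4.5e-23, edgeR) for Ly6Ghi over NL and 3.28 (SE 0.038, adjusted p = 5.84e-25) for Ly6Glow over NL, which are folds of 5.61 and 9.68. Ly6Glow exceeded Ly6Ghi 1.73-fold (log2 fold change 0.79, SE 0.033, adjusted p = 1.04e-14). On log2(FPKM + 1) this last difference was 0.55 and fell short of the threshold. All 10 listed neutrophil genes were also called higher than NL in both macrometastatic groups. Their median log2 fold change was 1.64 in Ly6Ghi over NL and 1.94 in Ly6Glow over NL. Of the 10 genes, 5 were called higher in Ly6Glow than in Ly6Ghi, as Prok2 was, and 5 were not called. Among the latter, S100a8 stood at 22000 CPM in Ly6Glow and 23600 in Ly6Ghi. The part of the neutrophil genes in the level of Prok2 was not tested. Per length, Prok2 had a mean FPKM of 52.17 in NL, 212.0 in Ly6Ghi and 310.6 in Ly6Glow, at or above 90.5%, 97.6% and 98.3% of the tested genes.

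Vegfa (chr17:46016993-46032377), the main angiogenic ligand of endothelial cells, was lower in both macrometastatic groups than in NL. It measured 173.7, 163.2 and 168.8 CPM in NL, 84.33, 86.9 and 86.72 in Ly6Ghi and 97.79, 97.53 and 98.26 in Ly6Glow. The 3 ranges did not overlap. The log2 fold change was -0.97 (SE 0.038, adjusted p = 3.68e-16) for Ly6Ghi over NL and -0.78 (SE 0.038, adjusted p = 1.83e-14) for Ly6Glow over NL. Ly6Glow lay above Ly6Ghi by 0.19 (SE 0.041, adjusted p = 0.000546), which is under the threshold, and on FPKM the sign turned (-0.04, with mean FPKM of 24.77 in Ly6Ghi and 24.0 in Ly6Glow). The order of the macrometastatic groups in Vegfa therefore depended on the scale.

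Osm (chr11:4236785-4241026), which signals through Osmr and Il6st, was among the most abundant members in every group. Its CPM was 551.6, 510.6 and 523.3 in NL, 398.5, 400.9 and 394.6 in Ly6Ghi and 491.0, 499.3 and 481.0 in Ly6Glow. Ly6Ghi was lowest, without overlap, and Ly6Glow lay just under NL. Osm was 0.41 lower on the log2 scale in Ly6Ghi than in NL (-0.41, SE 0.033, adjusted p = 1.62e-10), 0.30 higher in Ly6Glow than in Ly6Ghi (SE 0.034, adjusted p = 1e-07) and -0.11 in Ly6Glow over NL (SE 0.033, adjusted p = 0.00484). None of these passed the fold threshold. On log2(FPKM + 1) the differences from NL were -0.87 for Ly6Ghi and -0.81 for Ly6Glow and passed it, and with upper-quartile factors Ly6Ghi over NL was -0.60 and passed as well.

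On counts, Tgfb1 (chr7:25687002-25705077) varied least between the groups. The libraries held 151.9, 136.8 and 148.4 CPM in NL, 122.7, 131.5 and 129.2 in Ly6Ghi and 119.7, 128.2 and 119.8 in Ly6Glow. The macrometastatic groups overlapped each other, and both lay under NL. The log2 fold change was -0.19 (SE 0.044, adjusted p = 0.000456) for Ly6Ghi over NL and -0.25 (SE 0.045, adjusted p = 2.73e-05) for Ly6Glow over NL, both under the threshold. Between Ly6Glow and Ly6Ghi it was -0.06 with a 95% confidence interval from -0.16 to 0.04 (adjusted p = 0.283), and with DESeq2's size factors it was 0.005. On log2(FPKM + 1) the differences from NL became -0.64 and -0.94 and were called.

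The choice of scale mattered most for these small differences. The median of all tested genes was -0.09 in Ly6Ghi over NL and -0.16 in Ly6Glow over NL on TMM-normalized counts, and -0.32 and -0.49 on log2(FPKM + 1). In Ly6Glow over Ly6Ghi the medians were -0.04 and -0.13. Relative to these medians, Osm in Ly6Glow over NL was 0.05 on counts and -0.32 on FPKM, and Tgfb1 was -0.09 and -0.45. Relative to the median, Vegfa in Ly6Glow over Ly6Ghi was above it on both scales, by 0.23 and 0.09, and Prok2 by 0.83 and 0.68. So the sign of Osm against NL in Ly6Glow changed between counts and log2(FPKM + 1) after this correction. That of Vegfa between the macrometastatic groups did not. The correction depended on the pseudocount, since the median of all genes in Ly6Glow over NL was -0.811 on log2(FPKM + 0.1). Osm was no lower than -0.808 there in any setting, so it was not below that median.

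The ligands of Egfr, Hbegf and Areg, differed in pattern. Hbegf had 24.97, 24.18 and 24.92 CPM in NL, 13.41, 13.28 and 13.99 in Ly6Ghi and 12.1, 14.45 and 14.48 in Ly6Glow. Both macrometastatic groups lay under NL and overlapped each other. Hbegf was called lower in Ly6Ghi (log2 fold change -0.86, SE 0.070, adjusted p = 1.77e-10) and in Ly6Glow (-0.85, SE 0.074, adjusted p = 5.36e-10) than in NL. Ly6Glow over Ly6Ghi gave 0.02 with a 95% confidence interval from -0.16 to 0.19 (adjusted p = 0.89), and the sign turned when Ly6Glow replicate 2 or 3 was left out (-0.03 each).

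Areg was low in counts and had its lowest level in Ly6Ghi, with Ly6Glow in the range of NL. The libraries held 218.27, 273 and 206.97 estimated counts in NL, 48, 66.98 and 75 in Ly6Ghi and 131.99, 143 and 158 in Ly6Glow. In CPM these were 9.791, 12.46 and 9.328 in NL, 2.953, 3.955 and 4.642 in Ly6Ghi and 10.72, 10.76 and 12.04 in Ly6Glow. Ly6Ghi did not overlap either of the other groups, and NL and Ly6Glow overlapped. Ly6Glow was 2.9-fold higher than Ly6Ghi (log2 fold change 1.54, SE 0.152, adjusted p = 1.57e-08), and Ly6Ghi was lower than NL by 1.45 (-1.45, SE 0.142, adjusted p = 4.12e-09). Both calls held in all 19 alternative settings that kept the threshold of 0.58. Ly6Glow over NL was 0.09 with a 95% confidence interval from -0.16 to 0.34 (adjusted p = 0.498) and turned to -0.55 on log2(FPKM + 1), which is -0.06 relative to the median of all genes on that scale. Areg also had the widest spread within a group, with a coefficient of variation of 22.1% in Ly6Ghi, 6.73% in Ly6Glow and 16% in NL.

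Hgf (chr5:16553495-16619439), the ligand of Met, was highest in NL. It gave 16.93, 19.71 and 16.58 CPM in NL, 11.75, 10.63 and 13.06 in Ly6Ghi and 10.48, 10.69 and 9.682 in Ly6Glow. NL stood clear of both other groups, which overlapped. The log2 fold change of Ly6Glow over NL was -0.79 (SE 0.096, adjusted p = 1.13e-07) and was called in all 19 of these alternatives. That of Ly6Ghi over NL was -0.588 (SE 0.088, adjusted p = 2.51e-06), just past the threshold, and the call was lost in 9 of 19 alternatives. These 9 included, but were not limited to, the fits without Ly6Ghi replicate 1 (-0.575), Ly6Ghi replicate 2 (-0.513), any of the Ly6Glow replicates (-0.577) or NL replicate 2 (-0.501). Ly6Glow over Ly6Ghi was -0.20 with a 95% confidence interval from -0.42 to 0.02 (adjusted p = 0.12).

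Thbs1 (chr2:118111876-118127133), the inhibitor of angiogenesis among the members, fell from NL to both macrometastatic groups. Its CPM was 1509, 1458 and 1465 in NL, 332.9, 326.3 and 320.9 in Ly6Ghi and 239.4, 236.9 and 238.8 in Ly6Glow. The groups were widely separated. The log2 fold change was -2.18 (SE 0.031, adjusted p = 1.62e-23) in Ly6Ghi and -2.63 (SE 0.032, adjusted p = 1.35e-24) in Ly6Glow. Thbs1 was also lower in Ly6Glow than in Ly6Ghi (-0.46, SE 0.032, adjusted p = 5.24e-11), under the threshold on counts and past it on log2(FPKM + 1), where it was -0.68. Fibroblasts, endothelial cells and macrophages are also known to make Thbs1, and the summed CPM of the genes listed for them was higher in NL as given above. Not every listed macrophage gene was higher in NL. Their part in the level of Thbs1 was not tested.

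**Figure D2:**
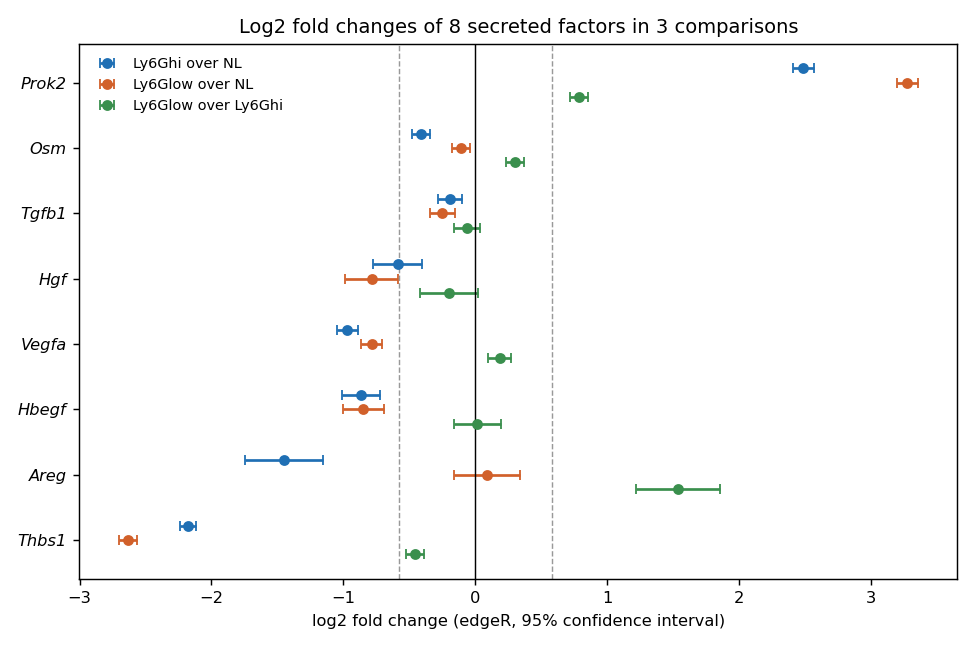
Log2 fold change (edgeR) of each factor in the 3 comparisons, with 95% confidence intervals; dashed lines mark 0.58 in either direction. Prok2 lies to the right in all 3 comparisons (0.79 to 3.28), Thbs1 to the left in all 3 (-0.46 to -2.63), and Areg lies left only for Ly6Ghi over NL (-1.45).

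Summed over the 8 factors, the groups differed in the total and in its make-up. The 8 genes took 0.315% to 0.324% of all estimated counts in NL, 0.121% to 0.122% in Ly6Ghi and 0.122% to 0.123% in Ly6Glow. Thbs1 alone accounted for 0.191% to 0.196% of counts in NL and for 0.0305% to 0.0315% and 0.019% to 0.0193% in the macrometastatic groups. Per length, the summed FPKM of the 8 genes was 935.2 to 969.0 in NL, 556.2 to 566.6 in Ly6Ghi and 636.5 to 645.9 in Ly6Glow. Osm held a similar share of that sum in all groups (38.8% to 39.7% in NL, 35.6% to 36.4% in Ly6Ghi, 32.7% to 33.5% in Ly6Glow). Prok2 and Thbs1 changed places, with Prok2 at 5.43% to 5.56% in NL and 47.7% to 48.8% in Ly6Glow, and Thbs1 at 34.8% to 35.6% in NL and 5.1% to 5.21% in Ly6Glow. In Ly6Ghi, Prok2 made up 37.4% to 38% of the sum and Thbs1 9.29% to 9.76%.

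**Figure D3:**
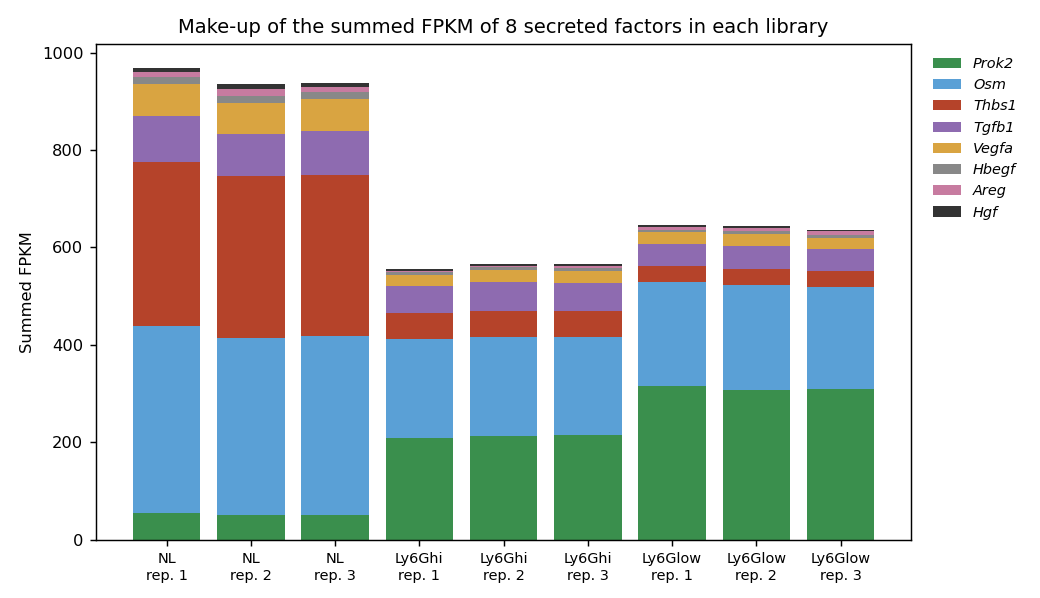
Summed FPKM of the 8 factors in each library, stacked by gene. The NL bars reach 935.2 to 969.0 with a large Thbs1 segment, while in Ly6Ghi and Ly6Glow Prok2 and Osm fill most of bars of 556.2 to 645.9.

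In FPKM, a scale that allows genes to be compared, the order of the mean levels in NL ran from Osm (371.7) and Thbs1 (333.3) through Tgfb1 (89.65), Vegfa (66.02), Prok2 (52.17), Hbegf (13.88) and Areg (11.82) to Hgf (8.91). Hbegf and Areg were the only neighbours in any of the 3 orders whose libraries overlapped, in NL (13.74 to 13.98 against 10.44 to 14.13 FPKM). In Ly6Ghi the order was Prok2 (212.0), Osm (202.9), Tgfb1 (57.01), Thbs1 (53.44), Vegfa (24.77), Hbegf (5.527), Hgf (4.217) and Areg (3.13). In Ly6Glow it was Prok2 (310.6), Osm (212.3), Tgfb1 (46.4), Thbs1 (33.09), Vegfa (24.0), Areg (7.713), Hbegf (4.737) and Hgf (3.147).

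The families, receptors and activators of the members were listed from general knowledge, with other angiogenic factors, and 91 of 101 genes were tested. In Ly6Glow over Ly6Ghi 14 were called higher and 10 lower, with a median log2 fold change of -0.10. In Ly6Ghi over NL 8 were called higher and 71 lower (median -1.62), and in Ly6Glow over NL 12 were higher and 64 lower (median -1.98). Over all tested genes, 9.29% were called higher and 15.9% lower in Ly6Glow over Ly6Ghi. The shares were 26.3% and 36.6% in Ly6Ghi over NL, and 28.7% and 40.8% in Ly6Glow over NL. Of the called genes, 24 of 24, 79 of 79 and 73 of 76 kept their sign in every alternative setting in these comparisons, the exceptions being Adam17, Grn and Ecm1 in Ly6Glow over NL. The calls themselves held in every setting for 9 of 24, 68 of 79 and 66 of 76. Many of the listed genes are known from endothelial cells, epithelium and fibroblasts, whose markers were also higher in NL, and Kdr is itself on the endothelial list. The part of these cells in the partner genes' levels was not tested.

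Receptors of the angiogenic ligands were low in the macrometastatic groups. All 9 tested genes of the VEGF family were called lower in both groups than in NL, beside 36.6% and 40.8% of all tested genes. Kdr, the main signaling receptor for Vegfa, fell from 161.4 ± 2.29 CPM in NL (SD, n = 3) to 9.918 ± 0.732 in Ly6Ghi (log2 fold change -4.02, SE 0.057, adjusted p = 1.62e-23) and 10.42 ± 0.733 in Ly6Glow (-3.95, SE 0.059, adjusted p = 3.12e-23). Flt1 fell by 3.12 and 3.29 on the log2 scale, the lymphatic receptor Flt4 by 4.15 and 3.96, and the co-receptors Nrp1 by 2.98 and 3.30 and Nrp2 by 2.10 and 2.51. None of Flt1, Kdr, Nrp1 and Nrp2 was called between Ly6Glow and Ly6Ghi, where their log2 fold changes were between -0.41 and 0.07. The receptors of Prok2 were barely read, with at most 9 counts of Prokr1 and at most 1 of Prokr2 in any library, and neither passed the filter.

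In the IL-6 family, the receptor pair of Osm was lower in the macrometastatic groups. Osmr was 43.66 ± 2.07 CPM in NL, 4.507 ± 0.718 in Ly6Ghi (-3.27, SE 0.094, adjusted p = 1.71e-18) and 5.447 ± 0.974 in Ly6Glow (-3.01, SE 0.097, adjusted p = 1.02e-17). Il6st, the shared signaling chain gp130, fell by 1.495 and 1.80, and Lifr by 1.21 and 1.31. Of the 10 tested genes of the family, 8 were lower and 2 higher in each macrometastatic group than in NL. Over all tested genes, 36.6% and 40.8% were called lower, and 26.3% and 28.7% higher. The 2 that were higher were Il6ra, the alpha chain of the IL-6 receptor (81.34 CPM in NL, 173.2 in Ly6Ghi and 227.9 in Ly6Glow, log2 fold changes 1.09 and 1.49), and Il27 (2.575, 16.3 and 15.84 CPM, log2 fold changes 2.66 and 2.62). No gene of the family was called between Ly6Glow and Ly6Ghi.

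Of 23 tested genes for Tgf-beta ligands, latency proteins, receptors and Smads, 4 were called higher and 0 lower in Ly6Glow over Ly6Ghi. Over all tested genes the shares were 9.29% and 15.9%. The 4 genes were Tgif1 (log2 fold change 1.22, SE 0.045, adjusted p = 9.7e-16) and Skil (0.81, SE 0.042, adjusted p = 3.36e-13), which are repressors of Smad transcription, Smad7 (0.76, SE 0.071, adjusted p = 5.95e-09), the inhibitory Smad, and the integrin chain Itgav (0.63, SE 0.065, adjusted p = 3.05e-08), which takes part in activating latent Tgf-beta. Skil, Smad7 and Itgav, though not Tgif1, fell below the threshold on FPKM. The receptors Tgfbr1 and Tgfbr2 were called lower than NL in Ly6Ghi (-0.80 and -0.88) and in Ly6Glow (-0.91 and -0.77), and the co-receptor Eng by 3.44 and 3.27 on the log2 scale. The latency protein Ltbp4 fell from 162.2 CPM in NL to 11.56 in Ly6Ghi and 11.79 in Ly6Glow. Furin, a convertase that processes the Tgfb1 precursor, and Smad4, the common Smad, were called higher than NL in Ly6Ghi (0.65 and 0.71) and Ly6Glow (1.05 and 1.16), but not on FPKM. In Ly6Ghi the calls were also lost with upper-quartile factors and with at least 10 counts in every library.

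Of 14 tested genes for Egfr ligands, receptors and sheddases, 4 were called higher and 2 lower in Ly6Glow over Ly6Ghi. The shares over all tested genes were 9.29% and 15.9%. The shedding genes did not move together, since Adam17 and Rhbdf2 were called higher, Rhbdf1 was called lower and Adam10 was not called (0.13, SE 0.048). Adam17, the main sheddase of Areg and Hbegf, was 387.1 ± 5.03 CPM in Ly6Glow and 239.7 ± 1.77 in Ly6Ghi (log2 fold change 0.69, SE 0.032, adjusted p = 4.38e-14), and its maturation partner Rhbdf2 was 381.5 ± 6.72 and 223.7 ± 5.53 (0.77, SE 0.044, adjusted p = 1.58e-12). Ereg, another Egfr ligand, was 15.75 ± 1.94 and 9.992 ± 0.625 (0.66, SE 0.099, adjusted p = 6.59e-06). On FPKM these 3 differences kept their sign and fell under the threshold. The other called genes were at low levels, with the ligand Epgn at 4.144 and 1.6 CPM (1.37, SE 0.211), the Erbb4 ligand Nrg4 at 0.4905 and 2.127 CPM (-2.10, SE 0.271) and Rhbdf1, the relative of Rhbdf2, at 1.137 and 1.825 CPM (-0.68, SE 0.266, adjusted p = 0.0352). The call of Rhbdf1 was lost without Ly6Ghi replicate 1 or 3 or Ly6Glow replicate 1 or 2 (adjusted p = 0.0674, 0.0777, 0.0725 and 0.121, edgeR). Adam10, a second sheddase, was higher than NL in Ly6Ghi (0.89) and in Ly6Glow (1.02) on counts. Egfr was 5.168 CPM in NL, 0.9756 in Ly6Ghi and 0.5691 in Ly6Glow, lower than NL by 2.40 and 3.17 on the log2 scale, and Erbb4 did not pass the filter.

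Met, the receptor of Hgf, was 16.66 ± 0.742 CPM in NL, 7.631 ± 0.694 in Ly6Ghi and 9.036 ± 0.632 in Ly6Glow, called lower than NL in both (-1.13 and -0.88) and not called between them (0.25, adjusted p = 0.0554). Among 8 tested genes around Hgf, 7 were lower in Ly6Ghi and 5 in Ly6Glow than in NL and none was higher. Over all tested genes, 36.6% and 40.8% were called lower, and 26.3% and 28.7% higher. Plau, the urokinase that can activate Hgf, was 46.59 CPM in NL, 24.99 in Ly6Ghi and 15.15 in Ly6Glow. It was also called lower in Ly6Glow than in Ly6Ghi (-0.72, SE 0.078, adjusted p = 6.91e-08). Plat, the tissue plasminogen activator, fell by 2.63 and 2.49 from NL.

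The receptors of Thbs1 moved apart. Cd36 was 245.1 ± 13.7 CPM in NL, 37.52 ± 0.437 in Ly6Ghi and 41.41 ± 0.276 in Ly6Glow, lower by 2.71 and 2.57 on the log2 scale. Cd47 was 147.5 ± 1.10, 391.5 ± 5.69 and 324.1 ± 7.87 CPM, higher by 1.41 (adjusted p = 4.83e-20) and 1.14 (adjusted p = 1.92e-18). Cd36 is also made by macrophages and endothelial cells. Itgb3, an integrin chain that binds Thbs1, was called lower in Ly6Glow than in Ly6Ghi (-0.65, SE 0.075, adjusted p = 1.44e-07). Among 21 other angiogenic and growth factors, 4 were higher and 5 lower in Ly6Glow over Ly6Ghi, beside 9.29% and 15.9% of all tested genes. In Ly6Glow and Ly6Ghi, Spp1 (osteopontin) was at 191.6 and 83.44 CPM (1.20, SE 0.036). Inhba, the activin A subunit, was at 29.28 and 98.36 CPM (-1.75, SE 0.066) and fibronectin Fn1 at 230.3 and 412.0 CPM (-0.84, SE 0.037). Of the 21, 19 were lower in Ly6Ghi and 18 in Ly6Glow than in NL, beside 36.6% and 40.8% of all tested genes. Spp1 was among them, at 566.6 CPM in NL.

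**Figure D4:**
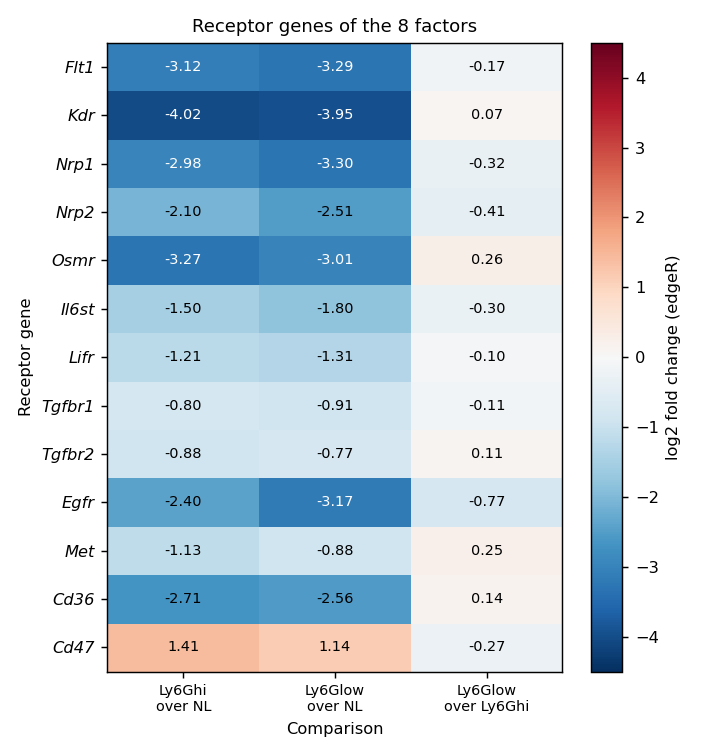
Log2 fold change (edgeR) of 13 receptor genes of the factors in the 3 comparisons; red is higher and blue lower in the first group named. Against NL all but Cd47 are lower in both macrometastatic groups, and between Ly6Glow and Ly6Ghi the values run from -0.77 (Egfr, adjusted p = 0.0843) to 0.26 (Osmr).

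The genes most like each member were found by the root mean square difference in log2 CPM over the 9 libraries, each gene centred on its own mean, among 7391 genes with a mean of at least 10 CPM. The nearest to Prok2 was Gclm (0.053), with 19.6 CPM in NL, 104 in Ly6Ghi and 190 in Ly6Glow. The nearest to Thbs1 were Sept8 (0.051), Klf4 (0.052) and Egr2 (0.078), of which Klf4 had 119, 25.6 and 20.0 CPM in the same order. Egr2, at 117, 27.8 and 18.4 CPM, is also on the list of immediate early genes, which were called in both directions against NL. The part of tissue dissociation in the level of Thbs1 was not tested. The nearest to Areg were farther off, namely Slc7a11 (0.175), F3 (0.177) and Crem (0.2), and F3, the gene of tissue factor, had 27.1 CPM in NL, 9.98 in Ly6Ghi and 27.1 in Ly6Glow. Vegfa was nearest to Aplp2 (0.041) and Tgfbr2 (0.042), Hbegf to Pde4d (0.052), Osm to Huwe1 (0.042), Tgfb1 to Man2b2 (0.037) and Hgf to 4930402H24Rik (0.091). Between the members themselves, Vegfa and Hbegf were closest (0.103) and Prok2 and Thbs1 farthest apart (2.54). These are descriptions over 9 libraries in 3 groups, so that genes with like group means come out as alike.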

How the data were processed

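RNA of 9 libraries of sorted lung neutrophils was extracted with TRIzol, selected for poly(A), made into strand-specific paired-end libraries and sequenced by BGI. The values deposited by the authors were estimated counts, which are not normalized, and FPKM, which the authors scaled for transcript length and depth. The aligner and the counting program are not given in the sources used here, and the submitters' processing notes name the genome build mm10. The promoter sequences are on GRCm38.p6, a patch release of the same assembly. Of 22064 genes, 3739 were blank. Since 37.9% of the estimated counts were whole, the values were rounded before testing. Genes were tested in R 4.3.3 with edgeR 4.0.16 (filterByExpr by group, TMM, quasi-likelihood F test, one model of 3 groups over the 9 libraries) with Benjamini-Hochberg adjustment over 14108 genes. The thresholds were 0.05 for the adjusted p and 0.58 for the log2 fold change, the latter as in the study's methods. The study used DESeq2, which was tried as an alternative. The scripts were tested on simulated data. TMM factors were 0.8029 to 0.8066 in Ly6Glow, 0.9455 to 0.9504 in Ly6Ghi and 1.298 to 1.324 in NL. The biological coefficient of variation was 0.0346, and no pair of libraries was identical. The SE is the size of the log2 fold change over the square root of F.

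Groups were taken from titles and treatment fields, since the descriptions of the NL libraries name only Ly6Ghigh neutrophils. The members and lists were chosen with earlier results of these data known. Named were all 8 members, their receptors, up to 3 called genes in each direction from each partner list and comparison (largest change, at least 10 CPM in the higher group), of which some are given here, and the genes most like each member. Ly6g, Itgav, Tpsb2, Epgn, Nrg4, Rhbdf1 and the markers singled out by name were named after their values were seen. Alternatives were DESeq2's size factors, upper-quartile factors, DESeq2 1.42.0, 2 other filters on counts, the 6 libraries of a comparison alone, limma 3.58.1 on log2(FPKM + 1), on log2(FPKM + 0.1) and on the former with a minimum FPKM of 1 in 3 libraries, no fold threshold or one of 1, a replicate block and leaving out each library in turn.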

Additional observations from a re-analysis of the deposited data

How the results depend on the processing

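Under the 19 alternative settings applied to single members, 411 values kept their direction and their side of the threshold, 17 passed it, 12 fell under it and 16 changed sign. Among counts of called genes, 185 stayed within 1.5 times, 9 were lower and 4 higher. No pairing by replicate number was detected, with correlations of deviations between same-numbered libraries of -0.0683 to 0.0766. These deviations are from means of 3 closely alike libraries, so they cannot exclude that libraries were paired. With a replicate block, the members called were 2, 6 and 5 in Ly6Glow over Ly6Ghi, Ly6Ghi over NL and Ly6Glow over NL, as without it, and the genes called 3522, 8856 and 9775. Leaving out 1 library at a time gave 2, 5 to 6 and 5 members. In Ly6Glow over Ly6Ghi, the members called were 5 with no fold threshold and 1 with a threshold of 1, the partner genes 41 and 7 (24 in the main analysis) and all genes 7868 and 1305 (3560). Partner genes and all genes came to 10 and 2243 on log2(FPKM + 1), and to 10 and 2223 with the FPKM filter. A threshold of 1 left 3 members in Ly6Ghi over NL and 2 in Ly6Glow over NL, and log2(FPKM + 0.1) called all 8 in the latter. In Ly6Glow over Ly6Ghi, Vegfa changed sign on log2(FPKM + 1), log2(FPKM + 0.1) and with the FPKM filter (-0.044, -0.045 and -0.044), Hbegf likewise (-0.189, -0.223 and -0.189), without a count filter (-0.003) and without Ly6Glow replicate 2 or 3 (leaving out 1 library at a time gave -0.031 to 0.09), and Tgfb1 with DESeq2's size factors in edgeR or in DESeq2 (0.005). In Ly6Glow over NL, Areg turned on the FPKM settings (-0.548, -0.599 and -0.548), with upper-quartile factors (-0.103) and with at least 10 counts in every library (-0.095). The cause was not tested. Depth limits Areg most, with 48 to 75 estimated counts per Ly6Ghi library.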
